A study of Mus musculus with 26 samples.

Results

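The cyclins of the G1 phase, the inhibitors of their kinases and Mdm2 were followed in liver cells traced by Foxl1-Cre during DDC feeding, as the 10 genes Ccnd1, Ccnd2, Ccnd3, Ccne1, Ccne2, Cdkn1a, Cdkn1b, Cdkn2a, Cdkn2b and Mdm2. They were chosen by name and taken as all non-control probes whose listed gene name equalled one of them, which gave 17 of the 41174 probes and 10 of the 27827 gene names on the array. Each probe carries its array identifier, and mm9 positions are those of the scanner files.

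Foxl1-Cre; RosaYFP mice carry a Cre recombinase under control of Foxl1 and a YFP reporter at the Rosa26 locus, so that a cell in which Cre acted, and its descendants, carry YFP. All mice were of this genotype and 6 to 10 weeks old. DDC, a porphyrinogenic compound given in the diet that injures bile ducts and brings out a ductular reaction, was fed for 3, 7 or 14 days. From the CD45-negative non-parenchymal cells, those with and those without YFP were then collected by sorting. The day 0 control was the total, unsorted non-parenchymal fraction of chow-fed mice, so diet and sorting differ together in each comparison with day 0 and cannot be told apart. Of the 26 samples of the series, 20 were analysed here, 1 array each. They were 2 day 0 arrays, 3 YFP-negative arrays at each of days 3, 7 and 14, and 4, 3 and 2 YFP-positive arrays at days 3, 7 and 14. Whether an array held 1 mouse or a pool is not stated in the sources used here, so p-values measure the spread between these arrays.

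D-type cyclins bind Cdk4 and Cdk6 in response to growth signals and begin the phosphorylation of the retinoblastoma protein, and E-type cyclins with Cdk2 complete it and open S phase. The proteins p21 (Cdkn1a) and p27 (Cdkn1b) bind cyclin-CDK complexes, whereas p15 (Cdkn2b) and p16 (Cdkn2a) bind Cdk4 and Cdk6 themselves. Mdm2 is the ubiquitin ligase that restrains p53, and both Mdm2 and Cdkn1a are p53 targets. In liver, cyclin D1 is the cyclin best known for driving hepatocytes out of quiescence, and p21 and p27 hold them there.

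Ccnd2, Ccne1, Ccne2, Cdkn1b and Mdm2 each had several probes, and the remaining 5 genes had 1 probe. The probes below are 60-base array sequences of Ccnd2, Ccne2, Cdkn1b and Mdm2 in which a script found at least 1 reading frame without a stop codon. The Ccne2 and Mdm2 probes gave the values of those genes, whereas the Ccnd2 and Cdkn1b probes are second probes, set beside the brightest probe, A_52_P514391 or A_51_P146126. The Ccnd2 pair is shown because these probes differed in the comparison of the fractions, the Ccne2 probe because its partner had the opposite sign, and the Cdkn1b and Mdm2 probes because each was printed 10 times on every array. All are in lower case because no part of them is singled out. The first Ccnd2 probe lies at chr6:127098696-127098755 and the second at chr6:127089187-127089246, both on the minus strand. The Ccne2 probe lies at chr4:11130171-11130230 on the plus strand. The Cdkn1b probe lies at chr6:134871103-134871161 on the plus strand, and the Mdm2 probe at chr10:117129725-117129784 on the minus strand.
Ccnd2 A_52_P53906: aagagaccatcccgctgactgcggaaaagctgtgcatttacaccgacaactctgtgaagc
Ccnd2 A_51_P433228: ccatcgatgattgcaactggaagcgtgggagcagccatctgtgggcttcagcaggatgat
Ccne2 A_52_P58560: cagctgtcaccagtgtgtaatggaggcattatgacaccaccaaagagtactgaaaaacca
Cdkn1b A_51_P169173: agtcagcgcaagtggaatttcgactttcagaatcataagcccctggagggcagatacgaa
Mdm2 A_51_P201346: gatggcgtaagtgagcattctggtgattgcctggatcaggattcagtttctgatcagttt

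Levels are log2 processed signals minus the 75th percentile of the same array, so a level of 0 is the signal that 75% of spots stay below. Between 81.0% and 91.2% of spots were well above background and no spot was saturated. A gene was represented by its brightest probe, and differences between groups were tested with limma over 26647 genes with Benjamini-Hochberg adjustment, with an adjusted p under 0.05 as the threshold. Bulk arrays cannot tell a smaller share of a cell type from less RNA per cell. The 8 biliary markers were all higher in YFP-positive cells over the mean of the 3 days, by a median log2 difference of 2.87, and Cftr and Cldn7 among them passed the threshold. Of 9 stellate markers 8 were lower in YFP-positive cells, with a median of -3.13, and Lrat, Col1a1 and Lum passed. The remaining 1 was higher at an unadjusted limma p under 0.05, a rule that called 21.4% of all genes. A pair of YFP-positive day 3 arrays stood apart. Replicate 3 had a mean biliary marker level of -0.39, below 4 of the YFP-negative arrays, while the other 8 YFP-positive arrays lay between 1.86 and 4.23. Replicate 4 had the highest biliary level, 4.23, and the lowest stellate (-3.50) and macrophage (-2.19) levels of the YFP-positive arrays. Of all 20 arrays, replicate 4 also had the lowest share of spots well above background, 81.0%, and the lowest 75th percentile, a signal of 1369. The part of array quality in its values was not tested.

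None of the 9 tested genes passed the threshold in any of 13 comparisons or in the limma F test across the 7 groups. For YFP-positive against YFP-negative cells over the mean of days, 171 of 26647 genes passed, which is 0.642%. At an unadjusted p under 0.05 that comparison called 1 of the 9, Ccnd1, where 21.4% of all genes were called. At the single days the same rule called Ccnd1 at day 3, none of the 9 at day 7 and Ccnd3 at day 14, where it called 7.84%, 5.27% and 12.3% of all genes. Against day 0 it called 0 of the 9 in YFP-negative cells, where it called 6.49%, 8.65% and 11.8% of all genes at days 3, 7 and 14. In YFP-positive cells it called Ccnd2 and Cdkn2b at day 3, Ccnd2 at day 7, and Ccnd2, Ccnd3 and Cdkn2b at day 14, where it called 10.2%, 11.6% and 11.4% of all genes. From day 3 to day 14 it called none of the 9 in YFP-negative cells (3.69% of all genes), Ccnd3 in YFP-positive cells (6.36%) and Ccnd3 for the difference of these changes (2.85%). The unadjusted F test called 11.4% of all genes. The median log2 difference of the 9 genes was -0.25 and that of all genes was 0.06, with 3 of the 9 above 0. The share of genes called by adjusted p in the remaining comparisons was 0% at day 3, 0% at day 7 and 0.0225% at day 14. Against day 0 it was 0.045%, 0.0488% and 0.0338% for YFP-negative cells and 0.0525%, 0.0338% and 0.143% for YFP-positive cells at days 3, 7 and 14. It was 0% for YFP-negative day 14 against day 3, 0.0263% for YFP-positive day 14 against day 3, 0% for the difference of these changes and 0.03% for the F test.

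The arrays of the fractions at day 14 did not overlap for 3 of the 9 genes, with Ccnd1 and Cdkn1a higher and Ccnd3 lower in YFP-positive cells, as for 20.5% and 13.7% of genes with a value on every array. At days 3 and 7, and over all 18 sorted arrays, the fractions overlapped for each of the 9. The share of genes without overlap was 3.75% higher and 1.69% lower at day 3, 4.29% and 5.1% at day 7, and 0.0114% and 0.0379% over all sorted arrays. In YFP-negative cells the arrays lay above both day 0 arrays for Cdkn1a at day 3, Ccnd3 and Ccne2 at day 7, and Cdkn1a and Cdkn2b at day 14, beside 9.62%, 10% and 12.2% of genes. They lay below for Ccnd1 at day 3 and day 7, and for Ccnd1, Ccnd2 and Ccne1 at day 14, beside 25.8%, 23.1% and 30.8% of genes. In YFP-positive cells the arrays lay above both day 0 arrays for none of the 9 at day 3, Ccne2 and Cdkn2b at day 7, and Ccnd1, Cdkn1a and Cdkn2b at day 14, beside 6.99%, 11.3% and 17.7% of genes. They lay below for Ccnd2 at all 3 days and also for Ccnd3 at day 14, beside 13.6%, 25.6% and 29.1% of genes. Between days 3 and 14 the arrays were without overlap for 1 of the 9 in YFP-negative cells, Cdkn2b, which was higher at day 14 (6.3% of genes higher and 5.89% lower). In YFP-positive cells they were so for none (5.27% and 5.59%). Counts of sorted arrays beyond both day 0 arrays are given gene by gene below. Except where a share is printed, the share of all genes reaching them was not computed, so they only describe levels.

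**Figure D1:**
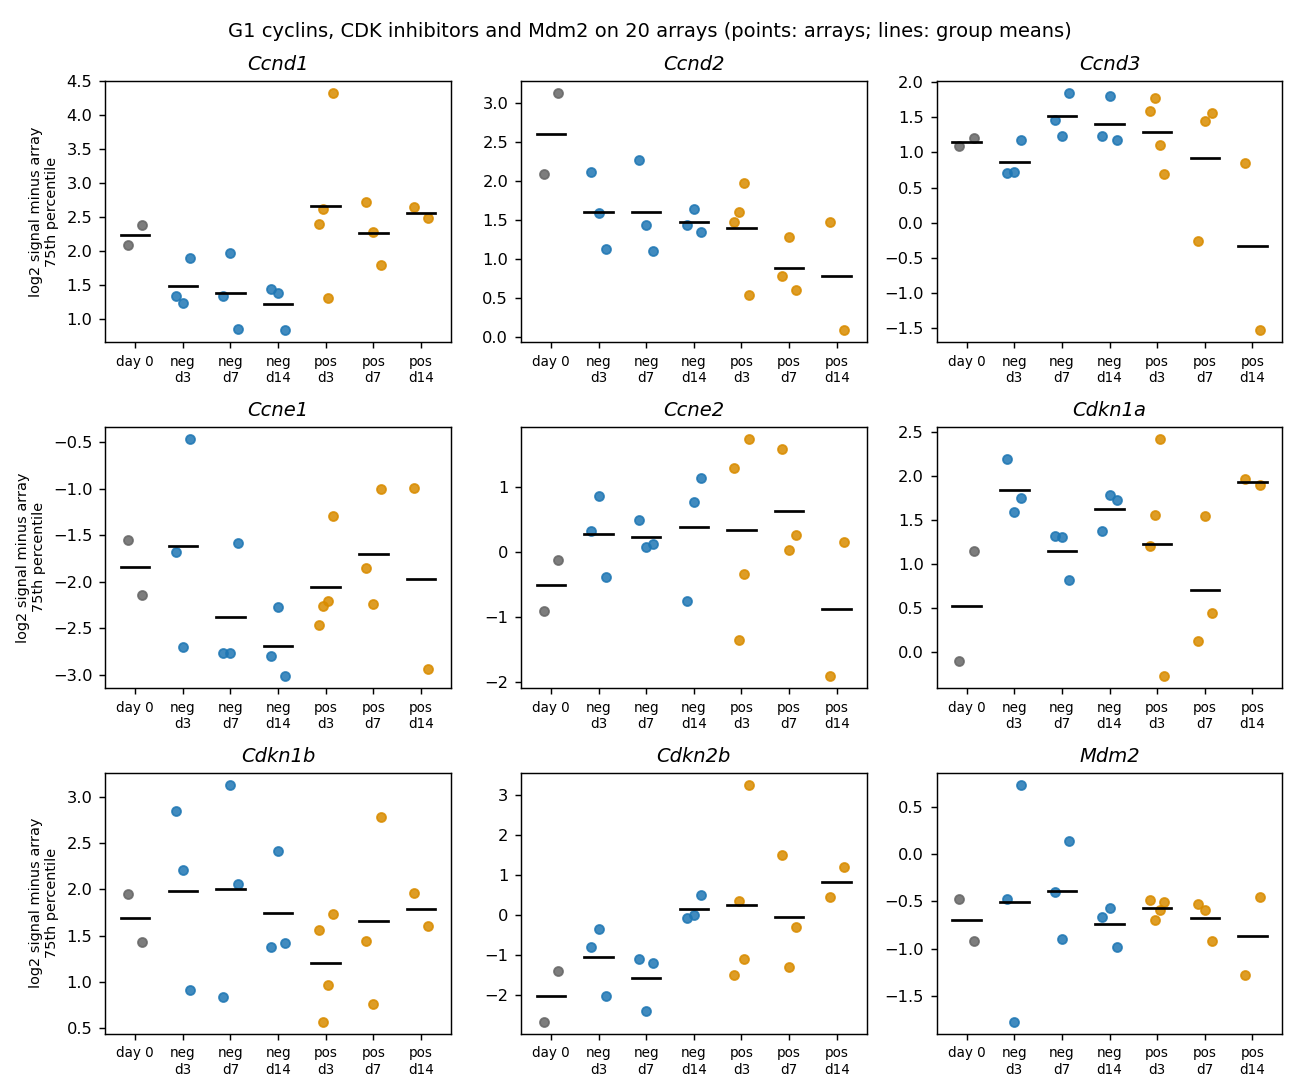
Levels of the 9 tested genes on 20 arrays as log2 signal minus the array's 75th percentile (vertical axis) in the 7 groups (day 0, YFP-negative "neg" and YFP-positive "pos" at days 3, 7 and 14). Points are arrays and lines are group means, and each panel has its own scale. Ccnd1 lies higher in most YFP-positive arrays, Ccnd2 is highest at day 0, and Cdkn2b is lowest there.

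Ccnd1, which encodes cyclin D1, had the smallest p of the genes studied between the fractions over the mean of days. Its probe lies at chr7:152116173-152116232 on the minus strand and was printed 10 times per array, with a median SD of 0.119 log2 units among the spots of an array and an SD of 0.82 over arrays. YFP-positive cells had Ccnd1 levels of 2.39, 2.61, 1.30 and 4.33 at day 3, 2.72, 2.27 and 1.80 at day 7, and 2.65 and 2.48 at day 14. YFP-negative cells had 1.33, 1.23 and 1.90 at day 3, 1.33, 1.96 and 0.84 at day 7, and 1.43, 1.38 and 0.83 at day 14. The day 0 arrays had 2.08 and 2.37. Thus 7 of 9 YFP-positive arrays lay above every YFP-negative array, the exceptions being replicate 3 of day 3 and replicate 4 of day 7, a separation reached in this direction by 347 of 26370 genes with a value on every array (1.32%).

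Over the mean of days Ccnd1 was 1.13 ± 0.34 log2 units (SE) higher in YFP-positive cells, with a 95% interval of 0.42 to 1.85. The unadjusted p was 0.00414 and the adjusted p was 0.0939, short of the threshold. By day, the log2 difference was 1.17 ± 0.54 at day 3 (adjusted p = 0.600), 0.88 ± 0.57 at day 7 (adjusted p = 0.9998) and 1.35 ± 0.64 at day 14 (adjusted p = 0.411). Day 14 was the only one of the 3 days at which the Ccnd1 arrays of the fractions did not overlap. The difference was 1.06 between the arrays of slide 1 at day 3, and 0.94 and 0.96 between those of slides 4 and 7 at day 7, with 1 array of each fraction on each slide. No slide held both fractions at day 14.

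The side of the threshold on which Ccnd1 fell changed with the arrays used and with the normalization. Without YFP-positive day 3 replicate 3, the array with few biliary transcripts, its log2 difference over the mean of days was 1.29 ± 0.29 with an adjusted p of 0.0273, where 4.64% of all genes passed. Without replicate 4 of the same group it was 0.95 ± 0.25 with an adjusted p of 0.0833, and the day 3 difference alone went from 1.17 to 0.62. Quantile normalization also took Ccnd1 past the threshold, with 1.13 and an adjusted p of 0.0494, where 4.22% of genes passed. Over the 10 alternative settings that kept all arrays, slide blocks among them, the difference lay between 0.88 and 1.14. Its limma adjusted p lay between 0.0494 and 0.637. In order of their means the Ccnd1 groups ran from YFP-positive day 3 (2.66), day 14 (2.56) and day 7 (2.26) through day 0 (2.23) to YFP-negative day 3 (1.48), day 7 (1.38) and day 14 (1.21). Neighbours in this order overlapped, apart from day 0 and YFP-negative day 3. All 9 YFP-negative arrays were below both day 0 arrays for Ccnd1 on this scale, with normexp and with quantile normalization. With array-median scaling 6 of 9 were, and the share of all genes reaching such counts was not computed. The log2 differences from day 0 were -0.74 ± 0.64, -0.85 ± 0.64 and -1.01 ± 0.64 in YFP-negative cells, and 0.43 ± 0.61, 0.04 ± 0.64 and 0.34 ± 0.70 in YFP-positive cells. The medians of all genes in these comparisons were -0.41, -0.36 and -0.42, and -0.20, -0.35 and -0.24.

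Ccnd1 and biliary marker levels were compared on arrays picked after their values were seen. The YFP-positive array with the lowest biliary level, -0.39, was also the one with the lowest Ccnd1 level, 1.30, and the array with the highest biliary level, 4.23, had the highest Ccnd1 level, 4.33. Within the YFP-negative fraction the array with the highest biliary level, day 14 replicate 3 at 2.02, had the lowest Ccnd1 level, 0.83. The day 0 arrays had biliary levels of 1.11 and 0.15 and Ccnd1 levels of 2.08 and 2.37. The part of biliary cell content in the Ccnd1 difference was not tested.

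**Figure D2:**
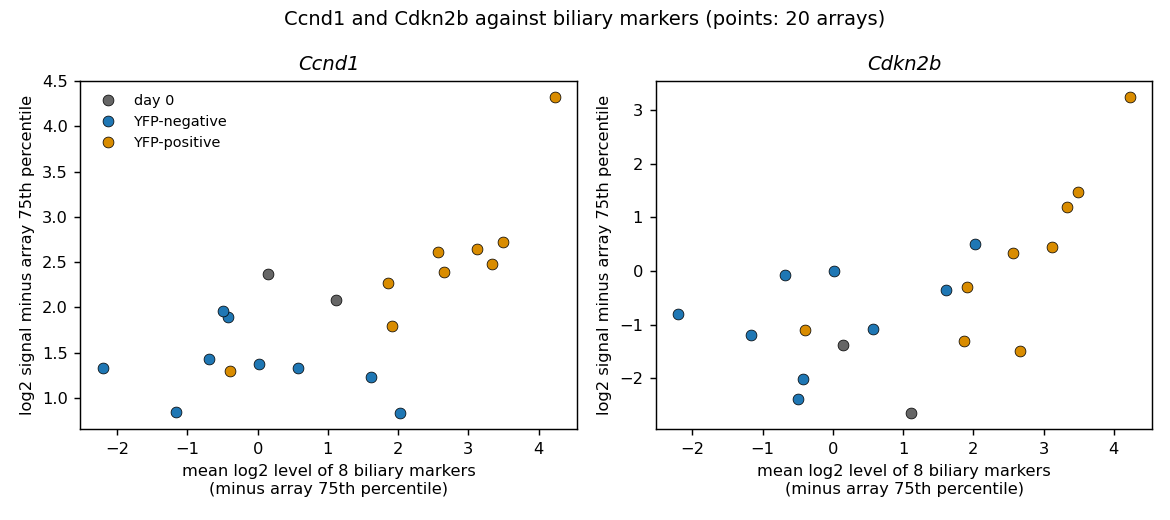
Ccnd1 (left) and Cdkn2b (right) level against the mean level of 8 biliary markers on 20 arrays, both as log2 signal minus the array's 75th percentile. Points are arrays, coloured as day 0, YFP-negative or YFP-positive. The YFP-positive array at a biliary level of 4.23 is highest for both genes, with 4.33 for Ccnd1 and 3.25 for Cdkn2b.

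Ccnd2, which encodes cyclin D2, had its highest group mean at day 0 on each of its 3 probes. The probe used for the gene, A_52_P514391 at chr6:127079694-127079753 on the minus strand, had levels of 2.08 and 3.13 at day 0. On this probe YFP-negative cells had 2.11, 1.58 and 1.12 at day 3, 2.27, 1.43 and 1.10 at day 7, and 1.43, 1.63 and 1.34 at day 14. YFP-positive cells had 1.48, 1.60, 1.98 and 0.53 at day 3, 0.78, 1.28 and 0.59 at day 7, and 1.47 and 0.08 at day 14. The order of the means was day 0, then YFP-negative days 3, 7 and 14, then YFP-positive days 3, 7 and 14, from 2.60 to 0.78, and arrays of neighbouring groups overlapped throughout. Of the 18 sorted arrays, 16 were below both day 0 arrays, and 13 were with array-median scaling, counts for which no share of all genes was computed.

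The other Ccnd2 probes, printed above, placed day 0 apart from every sorted array. On A_51_P433228 the day 0 arrays had 1.22 and 1.27 and the 18 sorted arrays lay between -0.78 and 0.73. On A_52_P53906 the day 0 arrays had 2.68 and 2.44 and the sorted arrays lay between -1.41 and 2.38. Both day 0 arrays were above all sorted arrays for 2.34% of the 39226 probes with a value on every array. On an array-median scale the first probe kept all 18 sorted arrays below day 0 and the second kept 17.

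Against day 0, the Ccnd2 log2 difference on the probe used was -1.21 ± 0.51 in YFP-positive cells at day 3 (adjusted p = 0.457), -1.72 ± 0.54 at day 7 (adjusted p = 0.252) and -1.83 ± 0.59 at day 14 (adjusted p = 0.251). In YFP-negative cells it was -1.001 ± 0.54, -1.01 ± 0.54 and -1.14 ± 0.54 (adjusted p = 0.747, 0.590 and 0.430). The median of all genes in these comparisons was itself between -0.42 and -0.20. On the array-median scale, where the median of all genes was 0.10 in YFP-positive day 14 cells in place of -0.24, the Ccnd2 differences in YFP-positive cells were -0.91, -1.44 and -1.49. With arrays weighted by their variability the day 7 value of -1.66 passed the threshold with an adjusted p of 0.0454, where 3.22% of genes passed. All 6 comparisons share the 2 day 0 arrays, and without day 0 replicate 2 the day 7 and day 14 differences in YFP-positive cells were -1.20 and -1.31. On slides 1 and 3, which held a day 0 and a YFP-positive day 3 array each, the difference was -0.61 and -1.15, and on slide 1 the day 14 difference was also -0.61. The YFP-negative day 3 array of slide 1 differed from its day 0 array by 0.02. With slide as a fixed block the Ccnd2 differences at days 3, 7 and 14 were -0.29, -0.24 and -0.37 in YFP-negative cells and -0.64, -0.93 and -1.28 in YFP-positive cells. Without day 0 replicate 2 they were -0.48, -0.48 and -0.61 in YFP-negative cells and -0.69 in YFP-positive day 3 cells, and without YFP-positive day 14 replicate 2 the difference of that group was -1.14.

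Between the fractions the Ccnd2 probes split. Over the mean of days the log2 difference of YFP-positive minus YFP-negative cells was -0.54 ± 0.29 on A_52_P514391, -0.91 ± 0.38 on A_52_P53906 and 0.06 ± 0.26 on A_51_P433228. The interval for the probe used ran from -1.14 to 0.07, with an adjusted p of 0.289. On that probe 4 of 9 YFP-positive arrays lay below every YFP-negative array, as for 9.31% of genes. The part of sorting in the day 0 values was not tested. The 7 lymphoid markers, which include Ptprc, the gene for CD45, had mean levels of -1.93 and -3.51 on the day 0 arrays and between -4.77 and -0.21 on the YFP-negative arrays.

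**Figure D3:**
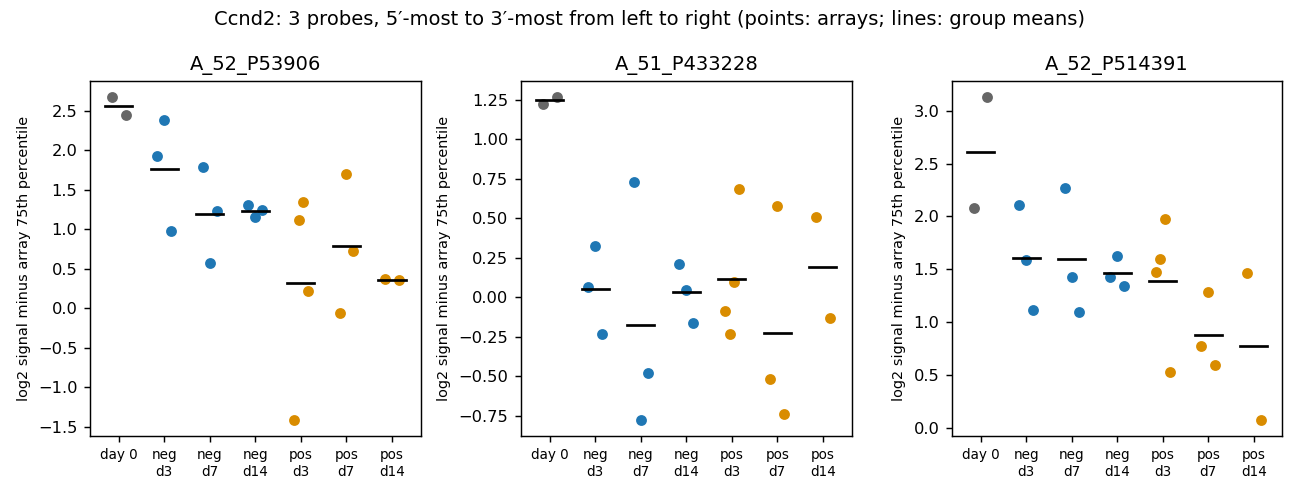
Levels of the 3 Ccnd2 probes on 20 arrays, as log2 signal minus the array's 75th percentile, in the 7 groups (neg, YFP-negative; pos, YFP-positive; d, day). Points are arrays and lines are group means, and each panel has its own scale. Day 0 has the highest mean on each probe, and on the left and middle probes both day 0 arrays lie above all 18 sorted arrays.

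Ccnd3, which encodes cyclin D3, had one low YFP-positive array at day 7 and one at day 14. Its probe, at chr17:47736267-47736326 on the plus strand, gave 1.58, 1.77, 1.10 and 0.70 in YFP-positive cells at day 3, -0.26, 1.45 and 1.56 at day 7, and 0.86 and -1.53 at day 14. YFP-negative Ccnd3 levels stayed between 0.71 and 1.85, with 0.71, 0.72 and 1.18 at day 3, 1.47, 1.23 and 1.85 at day 7, and 1.24, 1.80 and 1.17 at day 14. Day 0 had 1.09 and 1.21. The group means ran from 1.51 in YFP-negative day 7 through YFP-negative day 14, YFP-positive day 3, day 0, YFP-positive day 7 and YFP-negative day 3 to -0.34 in YFP-positive day 14, and arrays of neighbouring groups overlapped.

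At day 14 both YFP-positive arrays were below all 3 YFP-negative arrays for Ccnd3. That log2 difference was -1.74 ± 0.64, with an unadjusted p of 0.0150 and an adjusted p of 0.353. It rested on replicate 2, without which it was -0.55. YFP-positive day 14 minus day 3 was -1.63 ± 0.60 (adjusted p = 0.623) and became -0.43 without that array. The arrays of slides 1 and 2 gave -0.73 and -3.31 for this change. The difference between the changes of the fractions from day 3 to day 14 was -2.16 ± 0.83 (unadjusted p = 0.0197, adjusted p = 0.9999). Over the mean of days Ccnd3 differed by -0.64 ± 0.34 (adjusted p = 0.284), and with slide as a fixed block by 0.20.

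**Figure D4:**
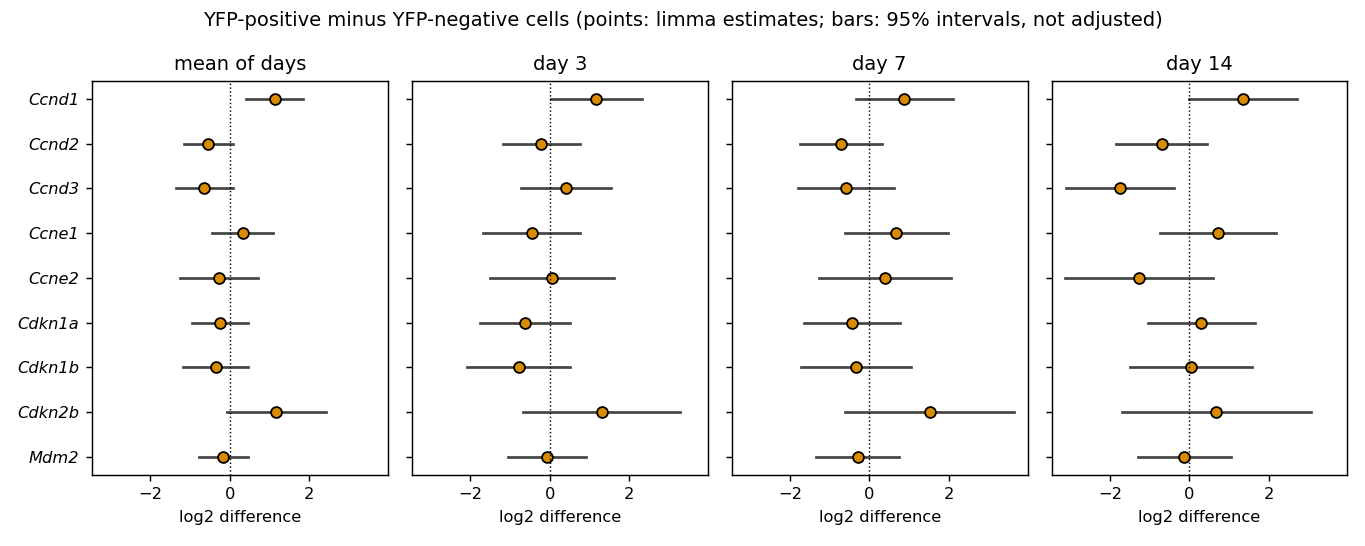
Log2 difference of YFP-positive minus YFP-negative cells (horizontal axis) for the 9 tested genes, over the mean of days and at days 3, 7 and 14. Points are limma estimates and bars are 95% intervals not adjusted for the number of genes. The Ccnd1 interval over the mean of days runs from 0.42 to 1.85, and the Ccnd3 interval at day 14 from -3.10 to -0.39.

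The E-type cyclins were spread widely over arrays without a separation of the fractions. Ccne1 was represented by A_52_P796682, listed with A_51_P408946 at the same 24-base position, chr7:38882937-38882960 on the minus strand. Its group means were -1.85 at day 0, -1.61, -2.37 and -2.70 in YFP-negative cells and -2.06, -1.70 and -1.97 in YFP-positive cells at days 3, 7 and 14. Single arrays ranged from -3.01 to -0.46, both in YFP-negative cells. Ccne1 differed over the mean of days by 0.32 ± 0.36 (interval -0.45 to 1.09, adjusted p = 0.636) and its second probe by 0.43 ± 0.58. Against day 0 the Ccne1 probes disagreed. In YFP-negative day 14 cells the log2 difference was -0.85 ± 0.69 on the probe used and 1.01 ± 1.11 on A_51_P408946. Of 18 sorted arrays, 11 were below and 4 above both day 0 arrays on the former, and 2 were below and 14 above on the latter. Ccne1 had the smallest p of the studied genes for YFP-negative day 14 minus day 3, at -1.08 ± 0.61 with an adjusted p of 0.999.

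Ccne2, represented by the probe printed above, had group means of -0.52 at day 0, 0.26, 0.22 and 0.38 in YFP-negative cells and 0.33, 0.62 and -0.88 in YFP-positive cells at days 3, 7 and 14. The 4 YFP-positive day 3 arrays alone covered 1.29, -1.35, -0.35 and 1.74, and the 2 arrays of day 14 had -1.91 and 0.15. The SD over 9 arrays was 1.26 in YFP-positive and 0.60 in YFP-negative cells. Averaged over days, the log2 difference was -0.27 ± 0.46 (interval -1.25 to 0.71, adjusted p = 0.770) on this probe and 0.38 ± 0.40 on A_52_P58558, so the probes had opposite signs. From day 3 to day 14 in YFP-positive cells the Ccne2 difference was -1.22 ± 0.83 (adjusted p = 0.930).

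**Figure D5:**
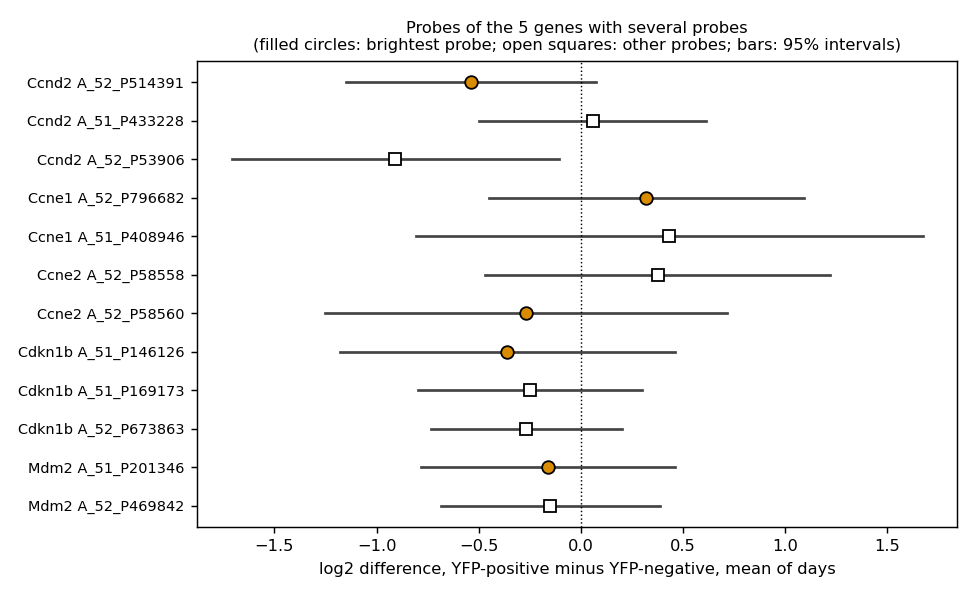
Log2 difference of YFP-positive minus YFP-negative cells over the mean of days (horizontal axis) for each probe of the 5 genes with several probes. Circles are the brightest probe, squares the others, and bars 95% intervals not adjusted for the number of probes. Ccne2 and Ccnd2 have probes on both sides of 0, and the Ccne1, Cdkn1b and Mdm2 probes lie on 1 side each.

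Cdkn1a, which encodes p21, had its lowest mean at day 0 on this scale and a broad spread in YFP-positive cells. The authors' fold changes, given below, instead put Cdkn1a under day 0 at day 7 in both fractions. Its probe at chr17:29237377-29237436 on the plus strand was printed 10 times per array, with a median SD of 0.115 among spots against 0.743 over arrays. Day 0 had Cdkn1a levels of -0.10 and 1.15. YFP-negative cells had 2.20, 1.60 and 1.75 at day 3, 1.33, 1.31 and 0.82 at day 7, and 1.38, 1.79 and 1.73 at day 14. YFP-positive cells had 1.21, 1.56, 2.43 and -0.27 at day 3, 0.12, 1.55 and 0.45 at day 7, and 1.97 and 1.90 at day 14. The means ran from YFP-positive day 14 (1.93) and YFP-negative days 3 and 14 through YFP-positive day 3, YFP-negative day 7 and YFP-positive day 7 to day 0 (0.53), and arrays of neighbouring groups overlapped. Of 18 sorted arrays 14 were above both day 0 arrays, a count for which no share of all genes was computed.

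The largest log2 differences of Cdkn1a from day 0 were 1.41 ± 0.69 in YFP-positive day 14 (adjusted p = 0.464) and 1.32 ± 0.63 in YFP-negative day 3 cells (adjusted p = 0.747), and the latter was 0.70 without day 0 replicate 1. The arrays of these groups lay above both day 0 arrays. On slide 1, which held 1 array of each of these groups, the differences from its day 0 array were 2.07 and 2.29. That array was day 0 replicate 1, the lower of the day 0 arrays for Cdkn1a, at -0.10. Between the fractions Cdkn1a differed by -0.25 ± 0.33 over the mean of days (interval -0.96 to 0.46, adjusted p = 0.692). The lowest Cdkn1a level, -0.27, was on YFP-positive day 3 replicate 4, where the mean of 20 p53 target genes was -0.81 and that of the other 19 arrays lay between 0.49 and 0.97.

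Cdkn1b, which encodes p27, had group means between 1.21 and 2.01 on the probe used, A_51_P146126 at chr6:134875215-134875274. They were 1.69 at day 0, 1.99, 2.01 and 1.74 in YFP-negative cells and 1.21, 1.66 and 1.78 in YFP-positive cells at days 3, 7 and 14. Arrays ranged from 0.57 to 3.13. The Cdkn1b difference over the mean of days was -0.36 ± 0.38 (interval -1.17 to 0.46, adjusted p = 0.614). It was -0.25 ± 0.26 on the printed probe and -0.27 ± 0.22 on A_52_P673863, so all 3 probes had the same sign. On A_52_P673863 the day 0 arrays had 0.14 and 0.48, and 14 of 18 sorted arrays lay below both, or 8 of 18 with array-median scaling. The group means on that probe were 0.31 at day 0, -0.16, 0.33 and -0.27 in YFP-negative cells and -0.51, 0.26 and -0.65 in YFP-positive cells at days 3, 7 and 14. Every array of YFP-negative day 14 and of YFP-positive days 3 and 14 lay below both day 0 arrays there. So did 30.8%, 13.6% and 29.1% of all genes on their brightest probes. The log2 difference from day 0 on this probe was -0.82 ± 0.40 in YFP-positive day 3 cells (adjusted p = 0.489) and -0.96 ± 0.46 at day 14 (adjusted p = 0.427). The adjusted p of the F test across groups was 0.924.

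The INK4 genes Cdkn2a and Cdkn2b differed in whether they could be measured. Cdkn2a has 1 probe, at chr4:88920545-88920604. Whether this probe tells the p16 and Arf transcripts of the gene apart was not tested. Of its 200 spots over 20 arrays 6 were well above background, on 4 arrays, and on no array were most of them, so no level or fold is given.

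Cdkn2b, which encodes p15, was measured on every array and had the widest range of group means of the 9 genes, 2.84 log2 units. Its probe lies at chr4:88952437-88952496 on the minus strand. Day 0 had Cdkn2b levels of -2.66 and -1.39. YFP-negative cells had -0.80, -0.35 and -2.03 at day 3, -1.09, -2.38 and -1.20 at day 7, and -0.07, 0.00 and 0.50 at day 14. YFP-positive cells had -1.49, 0.34, -1.10 and 3.25 at day 3, 1.48, -1.31 and -0.30 at day 7, and 0.44 and 1.19 at day 14. No sorted array lay below both day 0 arrays and 15 of 18 lay above both, or 16 of 18 with array-median scaling. The share of all genes reaching such counts was not computed. The means ran from YFP-positive days 14 and 3, YFP-negative day 14 and YFP-positive day 7 to YFP-negative days 3 and 7 and day 0, and neighbouring groups overlapped.

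Against day 0 the Cdkn2b log2 difference was 2.84 ± 1.22 in YFP-positive day 14 cells (unadjusted p = 0.0344, adjusted p = 0.397), 1.98 ± 1.12 at day 7 (adjusted p = 0.510) and 2.27 ± 1.06 at day 3 (adjusted p = 0.483). In YFP-negative cells it was 2.16 ± 1.12 at day 14 (adjusted p = 0.450) and 0.97 ± 1.12 and 0.46 ± 1.12 at days 3 and 7. The YFP-negative day 14 arrays were all above those of YFP-negative day 3, with a difference of 1.20 ± 0.998 (adjusted p = 0.999). On slide 1 YFP-positive day 14 was 3.10 above day 0 and YFP-negative day 3 was 1.86 above it. The day 0 array of slide 1 was replicate 1, the lower of the day 0 arrays for Cdkn2b, at -2.66. YFP-positive day 3 was 1.17 above day 0 on slide 1 and 0.28 above it on slide 3. The YFP-positive day 3 difference was 0.87 with slide as a fixed block and 1.27 without replicate 4, and that of day 7 was 1.22 without replicate 1 and 1.35 without day 0 replicate 1.

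Over the mean of days Cdkn2b was 1.17 ± 0.59 higher in YFP-positive cells (interval -0.08 to 2.42, adjusted p = 0.265). Its direction did not hold within slides. The difference was -0.69 on slide 1 at day 3 and -0.22 and 0.91 on slides 4 and 7 at day 7, and with slide as a fixed block the mean of days was -0.23. Without YFP-positive day 3 replicate 4 it was 0.83, and the day 3 difference went from 1.31 ± 0.93 to 0.31. That array was alone on slide 5, so the slide block also takes it out of the comparison. The 4 YFP-positive arrays with the highest biliary levels, from 3.12 to 4.23, were also the 4 with the highest Cdkn2b levels of that fraction, from 0.44 to 3.25. That choice of arrays was made after their values were seen, and the part of biliary cell content in the Cdkn2b values was not tested.

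Mdm2 had the smallest range of group means, 0.48 log2 units. On the printed probe the means were -0.70 at day 0, -0.51, -0.39 and -0.74 in YFP-negative cells and -0.57, -0.68 and -0.86 in YFP-positive cells at days 3, 7 and 14. The 9 YFP-positive arrays lay between -1.27 and -0.45, inside the YFP-negative range of -1.77 to 0.73. The difference over the mean of days was -0.16 ± 0.29 (interval -0.78 to 0.45, adjusted p = 0.781) and that of the second probe was -0.15 ± 0.25. The F test across groups gave Mdm2 an adjusted p of 0.987. For the other genes this F test gave 0.492 for Ccnd1, 0.488 for Ccnd2, 0.542 for Ccnd3, 0.783 for Ccne1, 0.800 for Ccne2, 0.587 for Cdkn1a and 0.536 for Cdkn2b.

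The partners of these genes were described from 7 lists with 74 of 76 genes measured, the names without a value being Cdk1 and Cdt2, an alias of the measured gene Dtl. Over the mean of days none passed the threshold by limma, and 10 were higher and 2 lower in YFP-positive cells at an unadjusted p under 0.05, or 16.2%, beside 21.4% of all genes. Of 8 CDKs and partners 7 were above 0 with a median log2 difference of 0.43. Cdk6, a partner of the D cyclins, had 0.83 ± 0.32 (adjusted p = 0.156), and Cks1b, a CDK subunit needed for p27 degradation, had 0.58 ± 0.24 (adjusted p = 0.175). All 4 other CDK inhibitors were below 0, with a median of -0.44, whereas at day 7 alone 3 of them were above 0, with a median of 0.17. The smallest p among them for the mean of days was that of Cdkn2d at -0.63 ± 0.31 (adjusted p = 0.249). The 13 RB and E2F genes had a median of -0.01, with Rb1 at -0.68 ± 0.26 (adjusted p = 0.154) and E2f4 at 0.46 ± 0.20 (adjusted p = 0.198).

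The 9 genes of p53 and its regulators had a median log2 difference of 0.39 over the mean of days, with Trp53 itself at 0.57 ± 0.21 (adjusted p = 0.149). The 20 p53 targets had a median of -0.03, with Bbc3, which encodes the pro-apoptotic protein PUMA, at 0.68 ± 0.18 (adjusted p = 0.0731) and Perp, a desmosomal and apoptosis gene, at 1.60 ± 0.58 (adjusted p = 0.140). The 9 genes of cyclin and inhibitor turnover had a median of -0.10. Among the 11 measured genes of cycling cells 8 were above 0 with a median of 0.41, and Mcm5, a subunit of the replicative helicase, had 0.92 ± 0.29 (adjusted p = 0.105). All genes had a median of 0.06 in this comparison.

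Against day 0 the genes of cycling cells had a median above that of all genes in every sorted group. Above 0 were 10, 9 and 8 of the 11 in YFP-negative and 11, 10 and 9 of the 11 in YFP-positive cells at days 3, 7 and 14. Their median log2 differences were 1.10, 1.45 and 0.94 in YFP-negative and 1.40, 1.87 and 1.24 in YFP-positive cells at days 3, 7 and 14, where the medians of all genes were -0.41, -0.36, -0.42, -0.20, -0.35 and -0.24. None of the 11 passed the threshold by limma. At an unadjusted p under 0.05, 5, 6 and 2 of them were higher in YFP-negative cells and 7, 7 and 3 in YFP-positive cells, and none was lower. Among all genes the shares called so in either direction were 6.49%, 8.65% and 11.8% in YFP-negative and 10.2%, 11.6% and 11.4% in YFP-positive cells. Top2a, the topoisomerase of dividing cells, had 2.97 ± 0.69 in YFP-positive day 3 cells (adjusted p = 0.215). Markers of other cells moved in the same comparisons, and their part in these values was not tested. The 4 measured of 6 neutrophil markers had median differences of 3.74, 3.89 and 0.43 in YFP-negative and 2.61, 3.58 and -1.08 in YFP-positive cells, and none passed the threshold. Their mean level lay between -5.97 and -0.59 on the day 0 arrays and between -6.51 and 3.43 on the sorted arrays. The 8 macrophage markers had medians of 1.98, 1.17 and -1.04 in YFP-negative and 0.47, 1.48 and -1.47 in YFP-positive cells, and the 9 stellate markers 1.66, 1.08 and 2.01 and -0.81, -0.91 and -2.45. The 8 biliary markers had -0.87, -1.10 and -0.28 in YFP-negative and 1.80, 1.86 and 2.58 in YFP-positive cells. The mean level of the cycling genes was -2.04 and -2.09 on the day 0 arrays and between -1.85 and 0.32 on the sorted arrays.

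Dtl, which encodes the substrate receptor of the ubiquitin ligase that degrades p21 and Cdt1, was the single gene of the 74 to pass against day 0, in YFP-positive cells at day 3 (adjusted p = 0.0269). It was well above background on 1 of the 2 day 0 arrays, with levels of -8.55 and -5.00, and on all 4 YFP-positive day 3 arrays, with 0.00, -0.41, -1.57 and -0.08. The test took the day 0 array that was not well above background at its listed level, so no size of the difference is given. YFP-positive cells had Dtl levels of 0.17, -1.26 and -1.49 at day 7 and -0.06 and -2.56 at day 14, and YFP-negative arrays lay between -3.90 and -0.92. Cks1b was 2.22 ± 0.43 higher at day 3 (adjusted p = 0.106), 2.23 ± 0.45 at day 7 (adjusted p = 0.104) and 2.03 ± 0.49 at day 14 (adjusted p = 0.133) in the same cells.

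The authors' deposited table gives signed fold changes and false discovery rates for the 6 comparisons with day 0. In the authors' deposited table Ccnd2 on A_52_P514391 had folds of -3.356 and -5.208 in YFP-positive cells at days 7 and 14, a minus sign standing for a lower level, with false discovery rates of 2.76% and 1.7%. The other Ccnd2 probes were also under 5% in that authors' deposited table at both days, with folds of -3.155 and -3.39 on A_52_P53906 and -2.597 and -2.012 on A_51_P433228. Cdkn2b had a fold of 6.807 in YFP-positive day 14 cells with a rate of 1.12% in the authors' deposited table. At day 14, 7.57% of entries in the authors' deposited table were lower and 8.74% higher at a rate under 5%, and 5.34% were lower at day 7. The second Ccne1 probe, A_51_P408946, was under 5% in the authors' deposited table in YFP-negative day 3 (3.38, where 3.28% of entries were higher) and YFP-positive day 7 cells (2.37, where 5.27% were). On that probe the day 0 arrays were dim, at levels of -4.88 and -4.78, and the limma log2 differences here were 1.15 and 0.41. Of the 96 values for these probes in the authors' deposited table, 9 were under 5%. For the 9 probes that gave the values here, 42 of 54 had the sign of the limma difference. The share over all probes was not computed. Among the values without that sign was the Ccnd1 probe in YFP-positive day 14 cells, with folds of -1.182 to -1.03 over its 10 spots in the authors' deposited table. Another was Cdkn1a at day 7, with folds of -1.302 to -1.104 in YFP-negative and -1.316 to -1.082 in YFP-positive cells. The limma log2 differences of Cdkn1a there were 0.63 and 0.18.

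By root mean square difference over the 20 arrays, each gene centred on its mean, the profile of Cdkn2b was most like those of Sh3yl1 (0.754) and Fgfr1 (0.755), beside a median of 1.54 over 16530 named genes. The profile of Ccnd3 was most like those of Kpna1 (0.447) and Dtx2 (0.461), beside a median of 1.20. Ccnd2 was most like Utp11l (0.371) and Elk3 (0.372), beside a median of 1.08.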

How the data were processed

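RNA of 20 samples was measured on 1-colour Agilent arrays of design 014868 after amplification. Per the file headers, spot intensity was extracted with Agilent Feature Extraction 10.5.1.1 (9.53 per the submitters' processing notes), background-subtracted and detrended, on build mm9. The signed fold changes and false discovery rates in percent come from the authors' deposited table, whose method is not given in the sources used here.

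Here, log2 gProcessedSignal was centred on each array's 75th percentile, outlier-flagged and control spots were left out and the spots of a probe averaged. A probe was kept if well above background on at least 2 arrays (39591 probes), and the brightest gave the gene's value (26647 genes). limma 3.58.1 in R 4.3.3 fitted a mean for each of 7 groups, with 13 residual and 2.32 prior degrees of freedom, and p-values were adjusted by Benjamini-Hochberg over all genes. The fit was run on simulated data with independent noise and shifts larger than the Ccnd1 and Cdkn2b differences over the mean of days. That run does not cover smaller differences or slide effects. The number of arrays limits the precision. Slide was given by the barcode, and 7 slides held the arrays. Whether the arrays of a slide were also scanned together was not tested.

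The genes and lists were chosen with earlier results of these data known. In each comparison the genes past the threshold, or else the pair with the smallest p, are given in full, and of each list at most 4 past the threshold or else at most 2 with the smallest p. Profiles are compared for the 3 genes with the widest range of group means. Alternatives were background correction by normexp (offset 50), quantile and median scaling, other probe filters, the mean of all probes, slide and replicate blocks, array weights and leaving out each array. The replicate numbers were not taken to pair the fractions, because the correlations of same-numbered arrays were not all above 0.1. These correlations of deviations from group means ran from -0.24 (day 14 replicate 2) to 0.39 (day 7 replicate 1). With so few arrays per group they cannot exclude a pairing. The other 6 samples were not analysed here.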

Additional observations from a re-analysis of the deposited data

Results flagged for a closer look

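At day 14, Ccnd1 was above the day 0 mean on both YFP-positive arrays and below it on all 3 YFP-negative arrays, on either side of the same control. The log2 differences from day 0 were 0.34 ± 0.70 and -1.01 ± 0.64, neither of which passed the threshold, and the authors' deposited table has the former lower than day 0, with folds of -1.182 to -1.03. The difference between them, which is the day 14 log2 difference of YFP-positive minus YFP-negative cells, was 1.35 ± 0.64, with an adjusted p of 0.411 by limma. At the same day Ccnd3 was below the day 0 mean on both YFP-positive arrays and above it on all 3 YFP-negative arrays, the closest of them at 1.17 against a day 0 mean of 1.15. The log2 difference between the fractions was -1.74 ± 0.64, with an adjusted p of 0.353, and it was -0.55 without YFP-positive day 14 replicate 2. The 9 tested genes were searched for this pattern at each of the 3 days, and the share of all genes showing it was not computed. At day 14 the arrays of the fractions were without overlap for 20.5% (higher) and 13.7% (lower) of genes. The median log2 difference of all genes in YFP-negative day 14 cells from day 0 was -0.42. No further test of the Ccnd1 or Ccnd3 difference was made.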

How the results depend on the processing

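Values were followed under 30 alternative settings, 20 of which left out 1 array each. They were those of all 9 tested genes over the mean of days and, in each other comparison, of the pair with the smallest p. Of 990 such values, 983 kept their direction and 7 turned. Because pairs were picked by p and most settings share nearly all arrays, these counts are no measure of robustness. The count of genes past the threshold over the mean of days went from 0 to 1, Ccnd1, with quantile normalization (1.13) and without YFP-positive day 3 replicate 3 (1.29), a range of 0 to 1 over the 20 arrays left out. In YFP-positive day 7 against day 0 it went from 0 to 1 with array weights, where Ccnd2 was -1.66. Ccne2 over the mean of days turned to 0.054 with the mean of all probes and to 0.076 without YFP-positive day 14 replicate 1, within a range of -0.61 to 0.076 over the arrays left out. Leaving out the same array also took Ccne1 to -0.0043, within a range of -0.0043 to 0.65. With slide as a fixed block Ccnd3 over the mean of days was 0.20 and Cdkn2b -0.23, and Cdkn2b at day 3 was -0.80. YFP-positive day 3 replicate 4 was alone on slide 5, so this block also takes that array out of the comparison. Mdm2 was 0.046 without YFP-negative day 3 replicate 4, within a range of -0.37 to 0.046. The cause of these turns was not tested. Ccnd1 over the mean of days was positive in all 30 settings, from 0.88 to 1.29, with adjusted p from 0.0273 to 0.637. A replicate block left 0 of the studied genes past the threshold in every comparison, and 42 of all genes over the mean of days in place of 171. That count was 43 with normexp, 1125 with quantile normalization, 360 with array-median scaling, 2 with slide as a fixed block and 139 with it as a random block. Dim probes limit Cdkn2a, for which no setting gives a level here.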
